A study of Mus musculus with 2 samples.

Results

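Ces2a, Ces2e, Aadac, Cyp3a11, Cyp2c55, Cyp2c29 and Cyp4f14 encode 7 enzymes of ester cleavage and oxidation, out of 18309 genes with a row in the count tables of 2 Drop-seq libraries. They were selected on their measured levels in these same libraries, as genes higher over all epithelial-like cells of 1 condition, so that difference is given as a description, with no test. All 7 were found in both tables, and all 7 had at least 20 unique molecular identifiers (UMIs, tags that count mRNA molecules) in epithelial-like cells. What follows gives their levels in each epithelial state, the cells that held them, and the rest of both enzyme families.

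Carboxylesterases and arylacetamide deacetylase are serine hydrolases of the endoplasmic reticulum that cleave ester and amide bonds in lipids and drugs. Cytochrome P450 enzymes of the same membrane add oxygen to fatty acids, steroids, retinoids and foreign compounds, with electrons from a reductase and, for some substrates, cytochrome b5. In the small intestine these enzymes are best known from absorptive enterocytes of the villus, and nuclear receptors such as PXR (Nr1i2), CAR (Nr1i3) and HNF4A are known regulators of many of them.

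Both libraries came from co-cultures of intestinal fibroblasts with crypts, the stem cell-bearing glands of the gut lining, taken from small intestine of 10-week-old C57BL6 mice. All cultures grew in organoid growth medium and all received DMSO. Ptger4-ON cultures had DMSO alone and grew as spheroids, while Ptger4-OFF cultures also received ONO-AE3-208, an inhibitor of the prostaglandin E2 receptor EP4 (gene Ptger4), at 10 µM in additions repeated every second day, and formed budding organoids. Each library was made from 1 pool of 6 cultures, so there was 1 library in each condition, no replicate error and no test between conditions. The 95% intervals below cover counting error only and say nothing of the variation between cells, cultures or mice.

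The Ptger4-ON library held 7408303 UMIs in 908 barcodes and the Ptger4-OFF library 9490205 UMIs in 1599 barcodes, and 876 and 1560 cells were kept. Of these, 588 and 1201 were epithelial-like and 288 and 359 fibroblast-like, and 1 barcode sequence occurred in both libraries. Barcodes over 50000 UMIs numbered 16 and 6, were all epithelial-like, and held 22.9% and 4.97% of the UMIs of that class. Values without them are given for the class, the Fabp1-high state, the state counts and the enzyme lists. The counts of co-detected genes and the likeness of profiles were not recomputed without them.

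The epithelial-like cells were divided into states by clustering and fixed marker lists. The Fabp1-high state, with the enterocyte genes Fabp1, Apoa1, Apoa4 and Sis among its leading genes, held 20 Ptger4-ON and 109 Ptger4-OFF cells, or 3.40% and 9.08% of the class. Ces2a, Cyp2c29, Cyp3a11 and Cyp4f14 stood among the 10 leading genes of that same cluster, so their higher level there is part of its definition. The Clu/Ly6a state held 187 and 79 cells (31.8% and 6.58%), the cycling Top2a state 189 and 414 (32.1% and 34.5%), and the Nrn1/Ttr state 122 and 517 (20.7% and 43.0%). Nrn1 led the cluster of the Nrn1/Ttr state, but the summed level of its marker list (1813 and 2266 CPM, counts in each 1000000 UMIs) was close to that of the Top2a state (1823 and 2223 CPM), so these markers alone did not separate the 2 states. A Paneth and goblet cluster had 69 and 65 cells and an enteroendocrine cluster 1 and 17. Of 12 hepatocyte markers, 8 were not analysed here and the remaining 4, Alb, Serpina1c, Apoh and Trf, reached a total of 1.63 and 2.50 CPM in the epithelial class.

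The loci of the 7 genes, in mm10 with GENCODE gene models, lie on 5 chromosomes. Ces2a and Ces2e both lie on the plus strand of chromosome 8, at 104734003 to 104741634 and 104926260 to 104934672, each with 12 exons in its longest transcript. Aadac lies on chromosome 3 at 60025717 to 60040160 (plus strand, 5 exons) and Cyp3a11 on chromosome 5 at 145854426 to 145879964 (minus strand, 13 exons). Cyp2c55 and Cyp2c29 lie on the plus strand of chromosome 19, at 39007019 to 39042693 and 39269405 to 39330713, with 9 exons each. Cyp4f14 lies on chromosome 17 at 32905070 to 32917342 (minus strand, 12 exons). Drop-seq reads the 3' end of a transcript, and in the last 500 bases the longest run shared with another gene of the family was 49 bases for Ces2a (with Ces2c), 40 for Cyp3a11 (with Cyp3a41a), 38 for Cyp2c29 (with Cyp2c68) and 56 for Cyp4f14 (with Cyp4f13). How the authors' counting treated reads in such runs is not given in the sources used here, so these 4 counts may hold reads of a relative. For Ces2e, Aadac and Cyp2c55 no shared run exceeded 13 bases.

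The promoters of the members are shown because the genes were chosen for moving together. RefSeq (GRCm38.p6) gave a promoter for 7 of 7 members. The 250 bases upstream of the RefSeq start were searched on both strands for CAAAGTNC, the core of an HNF4-type element. This motif was picked after the sequences had been looked at. It was found in 934 of 27025 mouse promoters (3.46%) and in 3 of 7 members, and a letter match is no evidence of binding. The RefSeq starts of Aadac, Cyp2c29 and Cyp3a11 lie inside the GENCODE loci given above. The windows of Aadac and Cyp2c29 thus lie wholly within those loci, and that of Cyp3a11 lies there in part, its match included. The 3 windows are printed 5′ to 3′ on the strand of the gene with the match in capitals, for Ces2a (chr8:104733753-104734002, plus strand), Ces2e (chr8:104926010-104926259, plus strand) and Cyp3a11 (chr5:145879855-145880104, minus strand).
Ces2a: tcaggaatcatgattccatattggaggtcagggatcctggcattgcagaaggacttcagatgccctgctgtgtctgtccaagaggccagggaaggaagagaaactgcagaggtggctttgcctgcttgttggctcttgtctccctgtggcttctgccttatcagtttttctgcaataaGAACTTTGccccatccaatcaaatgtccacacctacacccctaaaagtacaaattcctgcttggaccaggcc
Ces2e: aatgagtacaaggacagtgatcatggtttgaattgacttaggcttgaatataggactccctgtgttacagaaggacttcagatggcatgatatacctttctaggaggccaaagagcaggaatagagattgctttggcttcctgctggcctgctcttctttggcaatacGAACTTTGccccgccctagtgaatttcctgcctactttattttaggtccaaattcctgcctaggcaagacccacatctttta
Cyp3a11: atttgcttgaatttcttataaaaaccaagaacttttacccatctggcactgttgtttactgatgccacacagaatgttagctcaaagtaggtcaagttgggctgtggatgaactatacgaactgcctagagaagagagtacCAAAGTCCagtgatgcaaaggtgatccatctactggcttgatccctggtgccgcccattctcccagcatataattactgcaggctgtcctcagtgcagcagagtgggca
In Ces2a and Ces2e the match lay on the opposite strand, 65 and 75 bases from the start, and in Cyp3a11 on the gene's strand, 102 bases from it. The Ces2a and Ces2e windows were 69.9% identical over aligned bases, with gaps left out. By the same measure the other pairs of members ran from 53.0% to 65.2%. Besides the match the Ces2a and Ces2e windows shared the runs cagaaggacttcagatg and caaattcctgc. The longer form CAAAGTCCA, which contains the first motif, was found in 103 promoters (0.381%) and in Cyp3a11 alone among the members.

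Over all epithelial-like cells every member was at least 2-fold higher in Ptger4-OFF, the pattern for which the genes had been picked. The share of all 11613 measured genes at least 2-fold higher was 2.86%. Among the ester-cleaving enzymes, Ces2a had 523 UMIs or 94.5 CPM in Ptger4-ON and 4183 UMIs or 550 CPM in Ptger4-OFF, a ratio OFF/ON of 5.82 [5.31 to 6.39, exact conditional binomial interval]. Ces2e had 83.7 and 298 CPM, a ratio of 3.56 [3.22 to 3.94], and Aadac had 25.7 and 100.1 CPM, a ratio of 3.90 [3.26 to 4.70]. In these summed counts the mRNA of each of the 3 genes was thus several-fold higher in the captured epithelial-like cells of Ptger4-OFF.

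Among the oxidising enzymes, Cyp3a11, the mouse counterpart of the main human drug-oxidising P450, was at 7.41 CPM (41 UMIs) in Ptger4-ON and 89.6 CPM (681 UMIs) in Ptger4-OFF. Its ratio of 12.1 [8.82 to 17.0] was the highest of the 7. Cyp2c55 and Cyp2c29, which oxidise arachidonic acid, were at 42.7 and 157.7 CPM (ratio 3.70 [3.21 to 4.27]) and at 33.4 and 98.5 CPM (ratio 2.95 [2.51 to 3.48]). Cyp4f14, a fatty acid and leukotriene hydroxylase, was at 54.9 and 120.1 CPM, with the lowest ratio of the 7, 2.19 [1.92 to 2.50].

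Deep barcodes held most of the Ptger4-ON UMIs of 3 members. Without barcodes over 50000 UMIs the Ptger4-ON level was 12.2 CPM for Cyp2c29, 29.0 CPM for Cyp4f14 and 22.3 CPM for Cyp2c55, and the ratios became 6.41 [4.82 to 8.69], 3.91 [3.23 to 4.76] and 6.87 [5.57 to 8.57]. The ratios of the other members changed less, to 6.63 for Ces2a, 4.06 for Ces2e, 3.60 for Aadac and 9.53 for Cyp3a11.

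**Figure D1:**
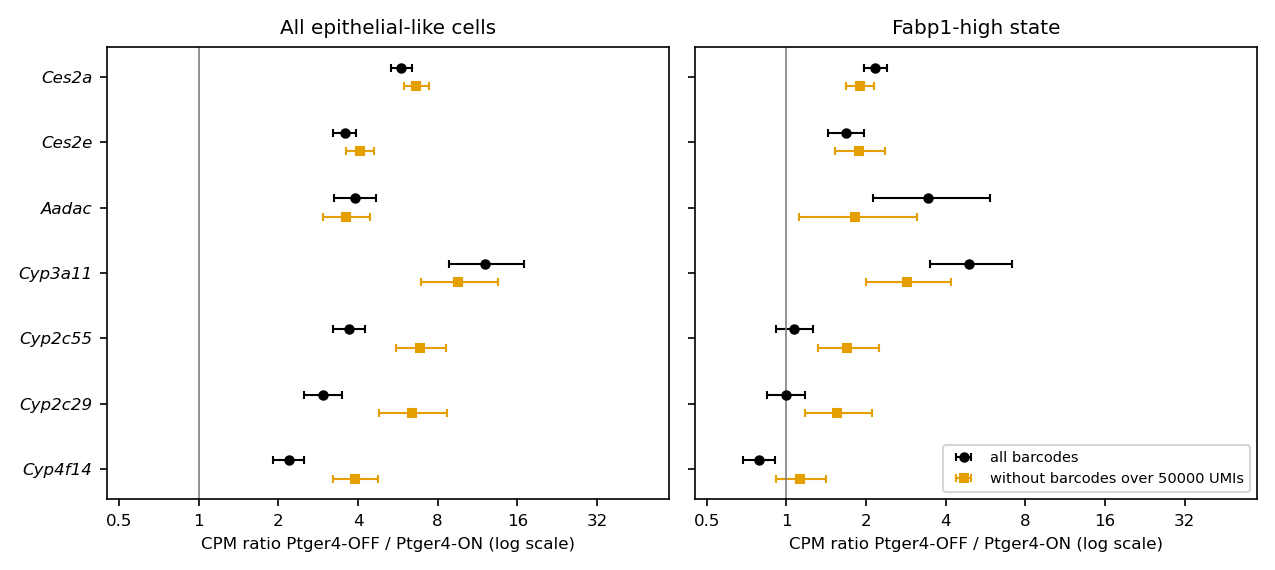
CPM ratio Ptger4-OFF over Ptger4-ON (log axis) of each member in all epithelial-like cells (left) and in the Fabp1-high state (right), with exact 95% counting intervals, for all barcodes (circles) and without barcodes over 50000 UMIs (squares). All ratios on the left lie above 2, while on the right they run from 0.79 for Cyp4f14 to 4.91 for Cyp3a11 and move when the deep barcodes are left out.

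The plot of ratios shows that the difference over the whole class was larger than the difference inside the Fabp1-high state for each of the 7 genes. For Aadac the intervals overlapped, with ratios of 3.90 [3.26 to 4.70] and 3.44 [2.13 to 5.90], so its difference did not exceed counting error. In the same comparison the share of the class that was Fabp1-high differed, 3.40% [2.09 to 5.20] of cells in Ptger4-ON against 9.08% [7.51 to 10.8] in Ptger4-OFF (exact Clopper-Pearson intervals). In UMIs the Fabp1-high cells gave 3.70% and 10.6% of the class total. Cells were released with trypsin and EDTA, so these are shares of the cells captured, and in summed counts more Fabp1-high cells and more mRNA in each cell cannot be told apart without the values by state.

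Given equal weight for each state instead of the weight captured, the median log2 ratio of the members over the class was 0.78, against 1.88 as captured, and that of Cyp4f14 was -0.29 against 1.13. In this weighting Cyp4f14 follows its Fabp1-high level, 1300 and 1022 CPM, where 1 barcode held 168 of the 266 Ptger4-ON UMIs. Equal weight for each state was not recomputed without that barcode. The median over all measured genes as captured was -0.04.

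Inside the Fabp1-high state 3 members (Ces2a, Aadac and Cyp3a11) were at least 2-fold higher in Ptger4-OFF, where 9.04% of 6071 measured genes were. Ces2a was at 2140 CPM (438 UMIs in 20 cells) and 4639 CPM (3730 UMIs in 109 cells), a ratio of 2.17 [1.96 to 2.40]. Cyp3a11 was at 171 CPM (35 UMIs) and 840 CPM (675 UMIs), a ratio of 4.91 [3.49 to 7.11]. Aadac was at 87.9 CPM (18 UMIs) and 302 CPM (243 UMIs), a ratio of 3.44 [2.13 to 5.90].

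The other members differed less in these cells. Ces2e was at 894 and 1497 CPM, a ratio of 1.67 [1.43 to 1.97]. Cyp2c55 was at 919 and 985 CPM (1.07 [0.91 to 1.26]) and Cyp2c29 at 904 and 898 CPM (0.99 [0.84 to 1.17]), so for both the interval of the ratio included 1. Cyp4f14 had the opposite sign, 1300 CPM in Ptger4-ON and 1022 CPM in Ptger4-OFF, a ratio of 0.79 [0.68 to 0.91].

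A single Ptger4-ON barcode weighed on these values. It had 92081 UMIs, 45.0% of all UMIs of the Ptger4-ON Fabp1-high state, and held 133 of 185 Cyp2c29 UMIs, 168 of 266 Cyp4f14 UMIs, 124 of 188 Cyp2c55 UMIs and 155 of 438 Ces2a UMIs, but 2 of 35 Cyp3a11 UMIs and none of the 18 of Aadac. The same barcode held 662 UMIs of the goblet gene Zg16 and 362 of Tff3, and the 15 Paneth and goblet markers summed to 16790 CPM in it. With this barcode and 1 Ptger4-OFF barcode over 50000 UMIs left out, 19 and 108 cells remained, and that marker sum was 639 and 906 CPM.

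Without those 2 barcodes the ratios were 1.90 [1.68 to 2.15] for Ces2a, 1.89 [1.53 to 2.36] for Ces2e, 1.81 [1.12 to 3.12] for Aadac and 2.85 [2.01 to 4.18] for Cyp3a11. For the other P450 genes they were 1.70 [1.32 to 2.23] for Cyp2c55, 1.56 [1.17 to 2.11] for Cyp2c29 and 1.13 [0.91 to 1.41] for Cyp4f14. All 7 then lay above 1, with the interval of Cyp4f14 alone including it, and only Cyp3a11 stayed above 2. In the same cells the enterocyte genes went both ways, with ratios of 1.95 for Fabp1, 5.26 for Apoa4, 0.81 for Apoa1 and 0.56 for Sis.

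**Figure D2:**
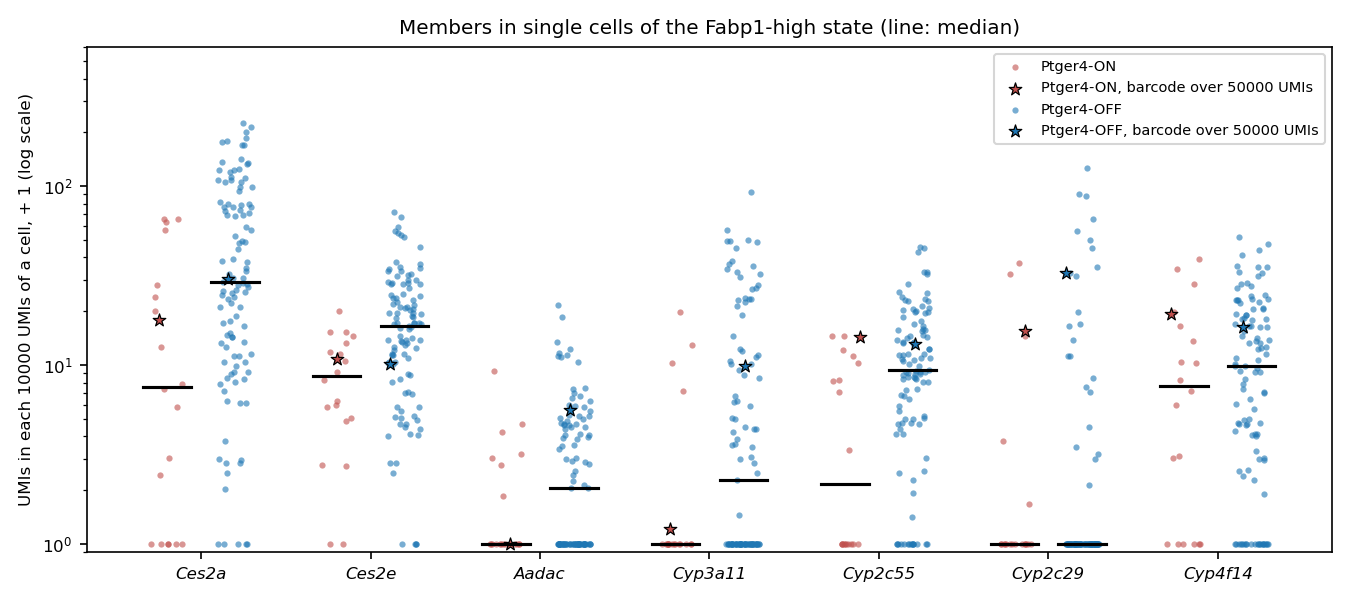
UMIs of each member in each 10000 UMIs of a cell, plus 1 (log axis), in the 20 Ptger4-ON and 109 Ptger4-OFF cells of the Fabp1-high state; lines are medians and stars are the 2 barcodes over 50000 UMIs. Ces2a and Ces2e have a UMI in most cells of both libraries, whereas the medians of Cyp2c29 sit at 0 UMIs in both.

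The share of single Fabp1-high cells with a UMI differed from member to member. Ces2a had a UMI in 14 of 20 Ptger4-ON and 104 of 109 Ptger4-OFF cells, Ces2e in 18 and 105, Cyp4f14 in 14 and 88, and Cyp2c55 in 10 and 94. Cyp3a11 had one in 5 and 56 cells, Aadac in 7 and 55, and Cyp2c29 in 6 and 25. For Cyp2c29, 2 cells held 50% of the 722 Ptger4-OFF UMIs of the state, against 13 cells for Ces2a and 18 for Ces2e, so its level there rested on very few cells.

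In the Ptger4-OFF library Cyp2c29 was found mostly where Cyp3a11 was. There 24 of the 25 Fabp1-high cells with a Cyp2c29 UMI also had Cyp3a11, against 32 of the 84 without Cyp2c29. With every cell thinned to 1000 UMIs, which removes differences in depth and left 105 cells, the counts were 17 of 18 against 21 of 87. In Ptger4-ON 4 of 6 cells with Cyp2c29 had Cyp3a11, against 1 of 14 without, and after thinning 2 of 5 against 1 of 13. These counts are a description of cells from 1 pool in each condition, and both genes were among those that led the cluster.

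At 1000 UMIs in each cell, at least 3 of the 7 members were detected in 67 of 105 Fabp1-high cells in Ptger4-OFF (63.8% [53.9 to 73.0], exact Clopper-Pearson) and 9 of 18 in Ptger4-ON (50% [26.0 to 74.0]). Without thinning the counts were 103 of 109 and 15 of 20. Over all epithelial-like cells that reached this depth the shares were 76 of 1153 (6.59% [5.23 to 8.18]) and 9 of 530 (1.70% [0.78 to 3.20]), and in fibroblast-like cells 0 of 348 and 0 of 259, with upper limits of 1.05% and 1.41% (exact Clopper-Pearson).

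**Figure D3:**
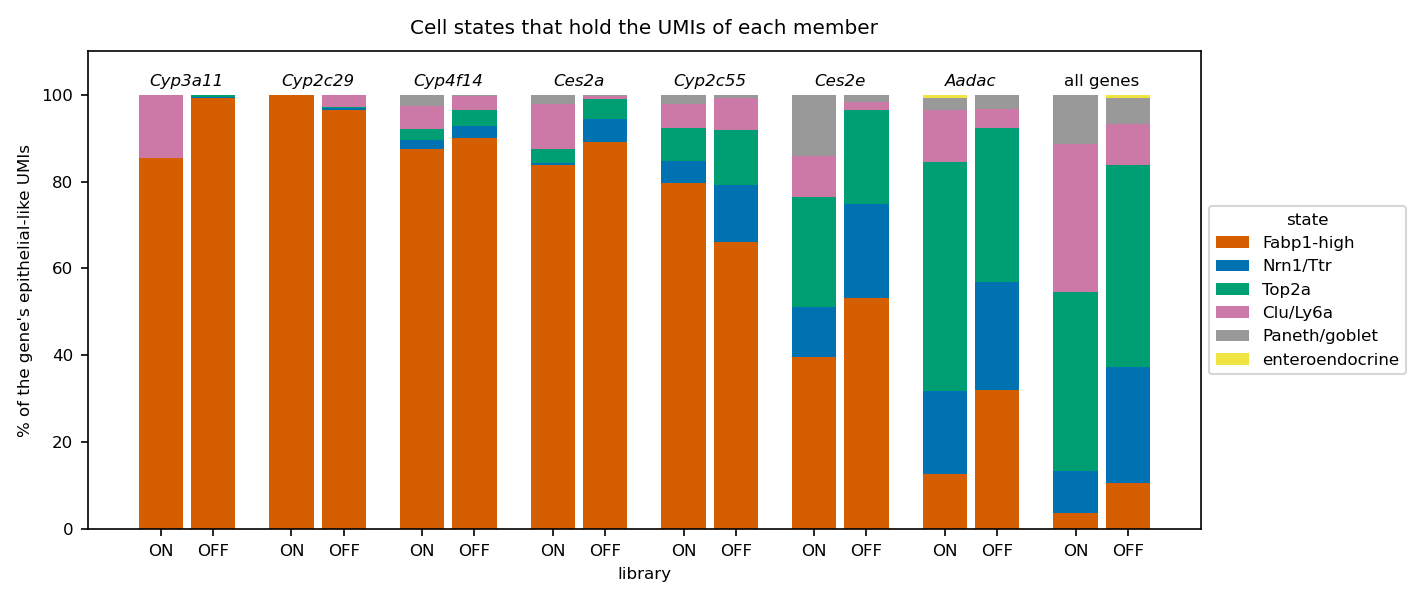
Percent of the epithelial-like UMIs of each member, and of all genes, that came from each cell state, in Ptger4-ON and Ptger4-OFF. Cyp3a11, Cyp2c29, Cyp4f14 and Ces2a lie mostly in Fabp1-high cells in both libraries, and Ces2e and Aadac are spread over the Nrn1/Ttr and Top2a states as well.

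The members differed in how far they were restricted to Fabp1-high cells, as the plot of UMI location shows. In Ptger4-OFF these cells held 99.1% of the epithelial-like UMIs of Cyp3a11, 96.4% of Cyp2c29, 90.0% of Cyp4f14 and 89.2% of Ces2a, and in Ptger4-ON 85.4%, 100%, 87.5% and 83.7%. Cyp2c55 was less restricted, with 66.1% in Ptger4-OFF and 79.7% in Ptger4-ON. Ces2e had 53.1% and 39.5% of its UMIs there, and Aadac 31.9% and 12.7%. Without barcodes over 50000 UMIs the Ptger4-ON shares of Cyp2c55 and Ces2e were 67.4% and 29.1%, and their Ptger4-OFF shares 65.2% and 53.0%. Since 4 of these genes helped to define the cluster, the shares are a description, and Ces2e and Aadac were the members found most widely outside it.

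**Figure D4:**
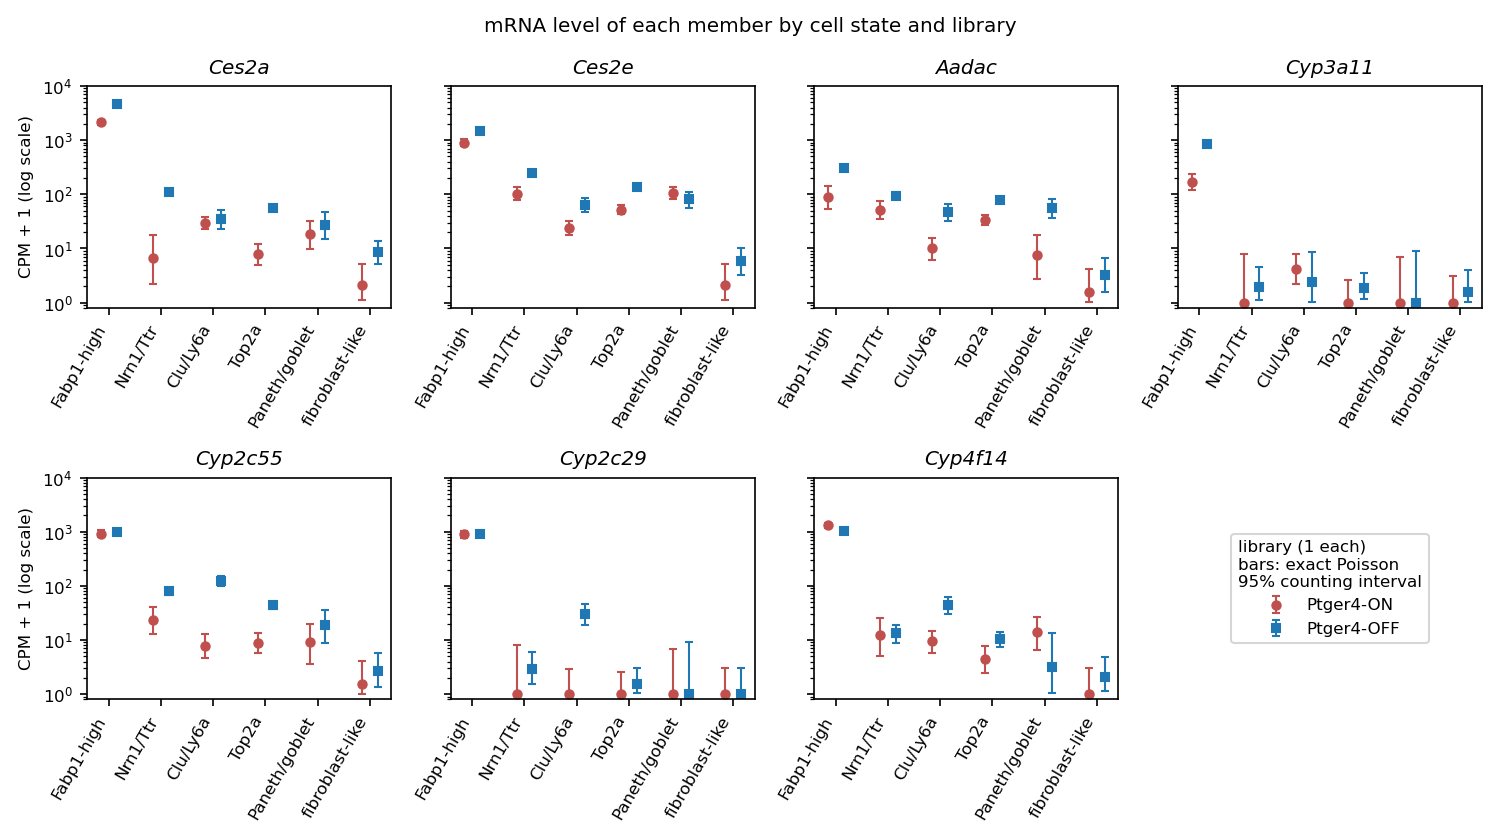
Level of each member as CPM plus 1 (log axis) in 5 epithelial states and in fibroblast-like cells of the Ptger4-ON (circles) and Ptger4-OFF (squares) libraries, with exact 95% Poisson intervals of counting error. The Fabp1-high state has the highest level of every member in both libraries, and the remaining states differ from gene to gene.

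Ces2a was highest in Fabp1-high cells of both libraries. In Ptger4-OFF the Nrn1/Ttr state followed with 109 CPM [95 to 124, exact Poisson interval], then Top2a with 54.7 [47.2 to 62.9], Clu/Ly6a with 34.5 [22.3 to 50.9] and Paneth and goblet cells with 26.5 [13.7 to 46.3], and the intervals of the last 3 overlapped from neighbour to neighbour. In Ptger4-ON the order below Fabp1-high was another one, with Clu/Ly6a at 29.2 CPM [22.0 to 38.0], Paneth and goblet cells at 17.8 [8.88 to 31.8], Top2a at 6.99 [4.0 to 11.4] and Nrn1/Ttr at 5.67 [1.17 to 16.6], each overlapping its neighbour. The ratios were 19.2 [6.49 to 93.9] in Nrn1/Ttr cells, from 3 UMIs in Ptger4-ON, 7.81 [4.69 to 13.9] in Top2a cells and 1.18 [0.71 to 1.93] in Clu/Ly6a cells. Fabp1, the fatty acid-binding protein of enterocytes, had ratios of like size in the first 2 of these states, 20.3 [6.87 to 99.3] from 3 and 234 UMIs in Nrn1/Ttr and 16.7 [7.96 to 42.2] from 7 and 181 UMIs in Top2a cells. It also had one of 7.17 [3.05 to 20.6] in fibroblast-like cells, at 3.42 and 24.5 CPM. The Clu/Ly6a value of Ces2a has little weight: 5 of 187 Ptger4-ON cells held 87.3% of its UMIs, and over the processing alternatives its log2 ratio ran from -2.46 to 4.84, with a ratio of 0.90 [0.51 to 1.53] without barcodes over 50000 UMIs.

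Ces2e, the other class 2 carboxylesterase, was present in every larger epithelial state. In Ptger4-OFF it stood at 1497 CPM in Fabp1-high, 243.5 [222 to 266] in Nrn1/Ttr, 138 [126 to 150] in Top2a, 79.5 [55.7 to 110] in Paneth and goblet and 62.1 [45.3 to 83.1] in Clu/Ly6a cells, the last 2 with overlapping intervals. In Ptger4-ON Paneth and goblet cells (105 CPM [81.1 to 134]) and Nrn1/Ttr cells (102 [76.7 to 133]) came next after Fabp1-high and did not differ beyond counting error, above Top2a (51.2 [42.3 to 61.3]) and Clu/Ly6a (23.3 [16.9 to 31.3]). Its ratio was 2.39 [1.80 to 3.22] in Nrn1/Ttr, 2.69 [2.19 to 3.32] in Top2a and 2.66 [1.72 to 4.13] in Clu/Ly6a cells, but 0.76 [0.49 to 1.15] in Paneth and goblet cells. In the Clu/Ly6a state 1 cell held 21 of the 45 Ptger4-OFF UMIs, the log2 ratio ran from 0.56 to 2.80 over the processing alternatives (1.41 as reported), and without barcodes over 50000 UMIs the ratio was 1.59 [0.89 to 2.82], an interval that includes 1.

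Aadac had the flattest profile. In Ptger4-OFF it was at 302 CPM in Fabp1-high, 93.2 [80.4 to 107] in Nrn1/Ttr, 76.7 [67.9 to 86.4] in Top2a, 55.2 [35.7 to 81.5] in Paneth and goblet and 45.6 [31.4 to 64.0] in Clu/Ly6a cells, and the intervals of the last 4 overlapped from neighbour to neighbour. In Ptger4-ON it was at 87.9, 51.0, 32.8, 6.47 and 9.01 CPM in the same order of states, where Fabp1-high [52.1 to 139] and Nrn1/Ttr [33.6 to 74.3] overlapped. The ratio was 1.83 [1.21 to 2.84] in Nrn1/Ttr, 2.34 [1.81 to 3.06] in Top2a, 5.05 [2.74 to 9.67] in Clu/Ly6a and 8.54 [2.95 to 33.7] in Paneth and goblet cells. The Paneth and goblet value rests on 4 Ptger4-ON UMIs, and in Clu/Ly6a cells 12 of the 17 Ptger4-ON UMIs came from 1 cell. With equal weight for each cell the log2 ratio in Clu/Ly6a cells was 1.17 (2.32 as reported), and without barcodes over 50000 UMIs 5 and 14 UMIs remained there. The Top2a state held 52.8% of the epithelial-like UMIs of Aadac in Ptger4-ON and 35.6% in Ptger4-OFF, beside 41.3% and 46.4% of the UMIs of all genes.

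Cyp2c55 was at 985 CPM in Fabp1-high cells of Ptger4-OFF, then at 124 [99.9 to 153] in Clu/Ly6a, 77.9 [66.2 to 91.0] in Nrn1/Ttr and 42.5 [36.0 to 49.8] in Top2a cells, with no overlap between neighbours, and at 17.7 [7.63 to 34.8] in Paneth and goblet cells. In Ptger4-ON the Clu/Ly6a, Nrn1/Ttr and Top2a states had 6.89, 22.7 and 7.87 CPM. The ratio in Clu/Ly6a cells, 18.0 [10.0 to 35.2], came from 13 UMIs in 6 of 187 cells and 90 UMIs in 14 of 79 cells, and the log2 ratio stayed between 3.43 and 4.77 over the processing alternatives (4.13 as reported). Without barcodes over 50000 UMIs 6 and 82 UMIs remained, a ratio of 29.3 [12.9 to 82.3]. In Nrn1/Ttr cells the ratio was 3.43 [1.91 to 6.79] and in Top2a cells 5.40 [3.30 to 9.35].

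Cyp3a11 was close to 0 outside Fabp1-high cells. Its counts in Ptger4-ON and Ptger4-OFF were 0 and 2 UMIs in Nrn1/Ttr, 6 and 1 in Clu/Ly6a, 0 and 3 in Top2a and 0 and 0 in Paneth and goblet cells. The floor of 3 counts allows up to 1.31 CPM in Top2a cells of Ptger4-ON and 5.67 CPM in Nrn1/Ttr cells. Cyp2c29 had 0 and 4 UMIs in Nrn1/Ttr and 0 and 2 in Top2a cells, and in Clu/Ly6a cells 0 in Ptger4-ON and 21 in Ptger4-OFF, at least 18.2-fold higher when 3 counts over the Ptger4-ON state are used. Of those 21 UMIs 17 came from 1 cell.

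Cyp4f14 outside Fabp1-high cells was at 11.3 and 12.3 CPM in Nrn1/Ttr (ratio 1.09 [0.44 to 3.24]), at 8.48 and 42.8 in Clu/Ly6a (5.04 [2.68 to 9.87]) and at 3.50 and 9.34 in Top2a cells (2.67 [1.21 to 6.69]). In the Clu/Ly6a state 16 UMIs lay in 7 of 187 Ptger4-ON cells, 8 of them in 1 cell, and 31 UMIs in 10 of 79 Ptger4-OFF cells. At 1000 UMIs in each cell Cyp4f14 was detected in 2 of 167 and 2 of 78 cells there. Over the processing alternatives its log2 ratio in that state ran from 1.57 to 3.28. Paneth and goblet cells had 8 and 1 UMIs. In fibroblast-like cells, which should lack these enzymes, Ces2a was at 1.14 and 7.61 CPM, Ces2e at 1.14 and 4.90, and every other member at or under 2.18 CPM in both libraries. The levels of Cyp3a11 in Nrn1/Ttr and Top2a cells and of Cyp2c29 in Top2a cells were thus no higher than in fibroblast-like cells of the series, within counting error.

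Counted by state, 3 of the 5 members with at least 20 UMIs were at least 2-fold higher in Ptger4-OFF in Nrn1/Ttr cells (3.72% of all genes measured there), 5 of 6 in Clu/Ly6a cells (3.3%) and 5 of 5 in Top2a cells (1.63%). None of these members was at least 2-fold lower, beside 2.55%, 5.6% and 1.68% of all genes. In Paneth and goblet cells 3 members reached 20 UMIs, of which 1 was at least 2-fold higher (2.77% of all genes) and 0 at least 2-fold lower (3.71%). The median log2 ratios were 1.24, 2.32 and 1.42, beside -0.02, -0.08 and -0.01 over all genes measured. Cyp3a11 fell short of the 20 UMIs in all 3 states and Cyp2c29 in 2 of them, and Cyp2c29 reached it in Clu/Ly6a cells through Ptger4-OFF alone, so these counts do not cover all 7 genes. Other counted members had under 20 UMIs in Ptger4-ON and 20 or more in Ptger4-OFF. These were Ces2a, Cyp2c55 and Cyp4f14 in Nrn1/Ttr (3, 12 and 6 Ptger4-ON UMIs) and Top2a cells (16, 18 and 8). In Clu/Ly6a cells they were Cyp2c55, Aadac and Cyp4f14 (13, 17 and 16), and in Paneth and goblet cells Aadac (4). The counts by state are thus a description only. Without barcodes over 50000 UMIs the count in Clu/Ly6a cells was 3 of 5 (3.51% of all genes), without Aadac and with Ces2e under 2-fold, and in Nrn1/Ttr and Top2a cells it was again 3 of 5 and 5 of 5. In the Clu/Ly6a state the 15 enterocyte markers also differed, with a sum of 786 CPM in Ptger4-ON and 1728 CPM in Ptger4-OFF and 10 of 11 measured markers higher. Their sum was 747 and 1034 CPM in Nrn1/Ttr and 832 and 934 CPM in Top2a cells, where 8 of 9 and 8 of 10 measured markers were higher, with median log2 ratios of 0.57 and 0.59 (1.21 in Clu/Ly6a cells). Fabp1 itself was at 5.67 and 115 CPM in Nrn1/Ttr, 3.06 and 51.2 CPM in Top2a and 28.1 and 258 CPM in Clu/Ly6a cells, the last a ratio of 9.19 [6.74 to 12.7]. The part of enterocyte mRNA or enterocyte-like cells in these ratios was not tested.

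Over all epithelial-like cells, shares of cells gave the same order of conditions for each member. The members had been picked for that order over the same cells, so these shares are a description. At 1000 UMIs in each cell (58 and 48 epithelial-like cells were shallower and left out), Ces2e was detected in 7.36% and 19.0% of epithelial-like cells, Ces2a in 3.77% and 13.2%, Cyp2c55 in 1.51% and 9.71% and Aadac in 2.83% and 8.33%. Cyp4f14 was detected in 2.08% and 5.55%, Cyp3a11 in 0.75% and 3.38% and Cyp2c29 in 0.94% [0.31 to 2.19] and 1.99% [1.27 to 2.98], for which the intervals overlapped. Inside Fabp1-high cells at this depth Cyp2c29 had the other order, 27.8% [9.69 to 53.5] in Ptger4-ON and 17.1% [10.5 to 25.7] in Ptger4-OFF, with overlapping intervals. Each other member had the larger share in Ptger4-OFF there. In fibroblast-like cells no member exceeded 0.39% in Ptger4-ON and 0.86% in Ptger4-OFF. Before thinning, at median depths of 4621 and 4158 UMIs, Ces2a was seen in 7.14% and 29.1% of epithelial-like cells, and in 0.69% and 3.62% of fibroblast-like cells at median depths of 4612.5 and 4495.

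**Figure D5:**
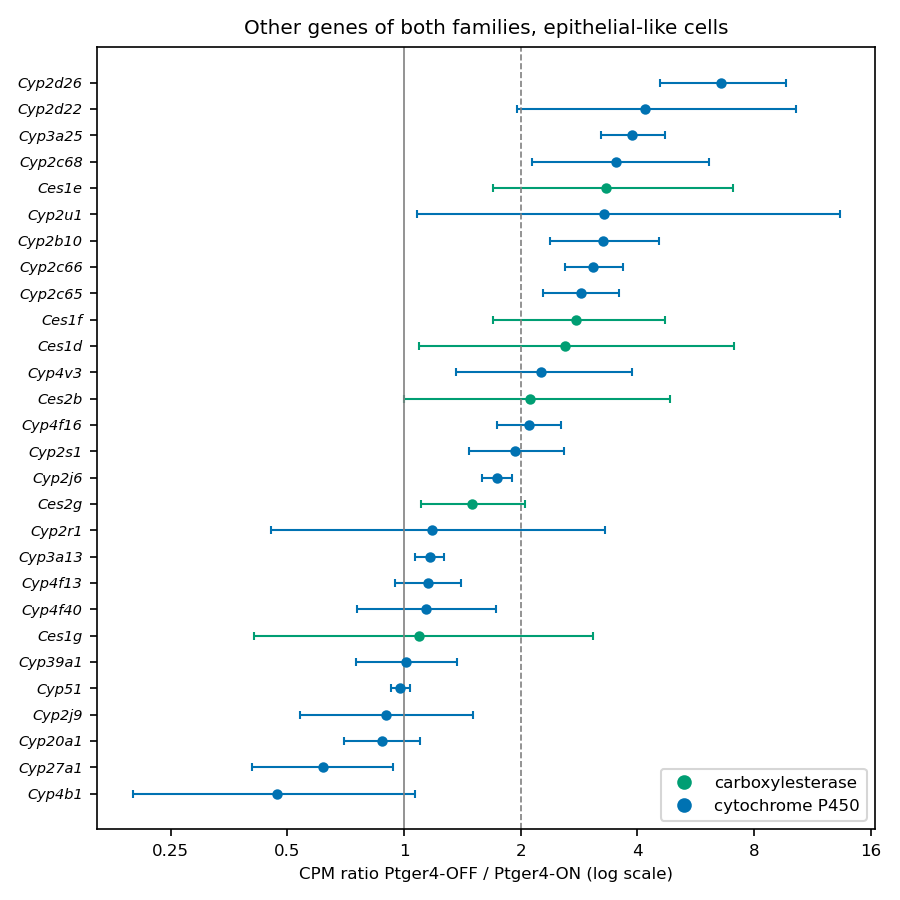
CPM ratio Ptger4-OFF over Ptger4-ON (log axis) in epithelial-like cells with exact 95% counting intervals for the 28 other carboxylesterase and cytochrome P450 genes with at least 20 UMIs over both libraries. The dashed line marks a ratio of 2, and 14 genes lie beyond it, from 2.10 for Cyp4f16 to 6.55 for Cyp2d26.

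The rest of both families, 59 genes, was taken by symbol and not by how it moved. Of these, 28 had at least 20 UMIs in epithelial-like cells, of which 14 were at least 2-fold higher in Ptger4-OFF and 1 at least 2-fold lower, beside 2.86% and 4.24% of all genes. Their median log2 ratio was 0.99, and 23 lay above 0. The UMI minimum was summed over both libraries, so genes low in Ptger4-ON could pass through Ptger4-OFF. Of the 14, Ces1d, Ces1e, Ces2b, Cyp2c68, Cyp2d22 and Cyp2u1 had 7, 11, 10, 19, 8 and 4 Ptger4-ON UMIs. Their Ptger4-OFF UMIs were 25, 50, 29, 92, 46 and 18, so the count is a description only. Without barcodes over 50000 UMIs 4 of 5 carboxylesterases and 11 of 21 P450 genes were at least 2-fold higher (3.13% of all genes), and the ratios of Ces1f, Cyp2d22 and Cyp3a25 were 5.83, 8.66 and 6.64. Among the 6 measured carboxylesterases 4 were at least 2-fold higher, with Ces1e at 1.99 and 6.57 CPM (ratio 3.31 [1.70 to 7.05]), Ces1f at 3.8 and 10.5 CPM (2.77 [1.70 to 4.72]) and Ces1d at 1.27 and 3.29 CPM (2.6 [1.09 to 7.12]). Ces2g (1.5) and Ces1g (1.09 [0.41 to 3.08]) had the smallest ratios.

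Of 22 measured P450 genes 10 were at least 2-fold higher and 1 lower, beside 2.86% and 4.24% of all genes. Cyp2d26 was at 5.96 and 39.1 CPM (6.55 [4.56 to 9.69]), Cyp2d22 at 1.45 and 6.05 CPM (4.18 [1.96 to 10.3]) and Cyp3a25, a relative of Cyp3a11, at 24.2 and 93.9 CPM (3.88 [3.22 to 4.70]). At the other end stood Cyp27a1, the sterol 27-hydroxylase, at 9.58 and 5.92 CPM (0.62 [0.41 to 0.94]) and Cyp4b1 at 3.07 and 1.45 CPM (0.47 [0.20 to 1.07]). Inside Fabp1-high cells the picture was different: of 16 measured P450 genes 1 was at least 2-fold higher and 3 at least 2-fold lower. The shares of all genes measured there were 9.04% and 6.62%, and the median log2 ratio of the P450 genes was -0.02. Cyp2d26 kept a ratio of 4.45 [2.50 to 8.76] in these cells, Cyp3a25 had 1.36 [1.12 to 1.66], and Cyp4b1 had 0.09 from 11 and 4 UMIs. The deep Ptger4-ON barcode described above is part of these values. Without barcodes over 50000 UMIs 2 of 15 P450 genes were at least 2-fold higher and 2 at least 2-fold lower (9.16% and 7.93% of all genes), with a median log2 ratio of 0.11, and the ratios were 4.12 [1.96 to 10.4] for Cyp2d26 and 1.76 [1.33 to 2.37] for Cyp3a25.

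Over the whole class, enzymes that act after oxidation differed less than the P450 genes. Of 36 measured conjugation enzymes 9 were at least 2-fold higher in Ptger4-OFF and 0 lower, beside 2.86% and 4.24% of all genes. Their median log2 ratio was 0.51. The glutathione transferase Gstm3 was at 53.5 and 255.6 CPM (4.78 [4.23 to 5.42]), the glucuronosyltransferase Ugt2a3 at 3.25 and 13.9 CPM (4.29 [2.59 to 7.51]) and Ugt2b5 at 1.08 and 4.34 CPM (4.0 [1.66 to 11.7]). Gsta2 (0.57) and Gstp2 (0.67) had the smallest ratios.

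Of 26 other oxidising and hydrolysing enzymes 5 were at least 2-fold higher and 1 lower, beside 2.86% and 4.24% of all genes. Their median log2 ratio was 0.33. Adh1, the class I alcohol dehydrogenase, was at 3.8 and 33.0 CPM (8.70 [5.57 to 14.3]) and Adh6a at 2.17 and 15.4 CPM (7.10 [3.91 to 14.1]), and in Fabp1-high cells their ratios were 11.6 [4.88 to 35.9] and 6.55 [2.48 to 24.5], or 6.61 [2.79 to 20.6] and 3.62 [1.37 to 13.6] without barcodes over 50000 UMIs. Akr1b7 had 1 and 19 UMIs, a ratio of 13.8 [2.20 to 575]. Aldh1a3, a retinaldehyde dehydrogenase, was lower at 9.04 and 3.95 CPM (0.44 [0.27 to 0.70]), as was Akr1b8 (0.64 [0.56 to 0.74]).

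Of 10 measured partner proteins of the P450 enzymes, not all of them electron donors, 0 were at least 2-fold higher or lower with all barcodes. The shares of all genes were 2.86% and 4.24%, and the median log2 ratio of the partners was 0.23. Cyb5, cytochrome b5, came nearest at 304 and 602 CPM (1.98 [1.87 to 2.10]), followed by the haem-binding proteins Pgrmc2 (1.43) and Pgrmc1 (1.31), while Cyb5r1 (0.80) and the haem oxygenase Hmox1 (0.69 [0.46 to 1.02]) had the smallest ratios. Without barcodes over 50000 UMIs 1 of the 10 was at least 2-fold higher (3.13% of all genes), and Cyb5 had a ratio of 2.19 [2.05 to 2.34] over the class. In Fabp1-high cells Cyb5 was at 2135 and 2211 CPM, a ratio of 1.04 [0.93 to 1.15], which without barcodes over 50000 UMIs was 1.31 [1.13 to 1.54].

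The 28 measured nuclear receptors and other regulators had a median log2 ratio of 0.29. Among them 0 were at least 2-fold lower and 3 at least 2-fold higher, beside 4.24% and 2.86% of all genes. The 3 higher ones were Creb3l3, a membrane-bound factor of lipid metabolism, at 39.6 and 114 CPM (2.88 [2.48 to 3.36]), Nr1i3 (CAR) at 3.25 and 8.81 CPM (2.71 [1.59 to 4.84]) and Nr1h3 (LXR alpha) at 3.43 and 7.63 CPM (2.22 [1.30 to 3.95]). Ppard had the smallest ratio (0.58 [0.39 to 0.84]). PXR (Nr1i2), named here as the best-known regulator of Cyp3a11 and outside the naming rule, was at 19.9 and 31.4 CPM (1.58 [1.26 to 2.0]), and HNF4A (Hnf4a) at 244 and 295 CPM (1.21 [1.13 to 1.30]). Within Fabp1-high cells Creb3l3 was at 850 and 925 CPM (1.09 [0.92 to 1.29]), and at a ratio of 1.18 [0.94 to 1.49] without barcodes over 50000 UMIs.

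Transporters went both ways, with 4 of 22 measured at least 2-fold higher and 3 lower, beside 2.86% and 4.24% of all genes. Their median log2 ratio was 0.36. Slco2b1 (5.09 [1.78 to 20]), the peptide transporter Slc15a1 (3.27 [1.33 to 9.70]) and the sterol transporter Abcg8 (2.66 [2.04 to 3.52]) had the largest ratios, and all 4 Ptger4-ON UMIs of Slco2b1 lay in barcodes over 50000 UMIs. Slco2a1, a prostaglandin transporter, was at 7.05 and 2.76 CPM (0.39 [0.22 to 0.68]) and Abcb1b at 3.61 and 1.05 CPM (0.29 [0.11 to 0.69]). In Fabp1-high cells 12 transporters were measured and their median log2 ratio was -0.49, or -0.30 without barcodes over 50000 UMIs.

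Over 10 profiles (5 epithelial states in 2 libraries, which share libraries and differ in depth), the level of each of 11613 genes was set beside the mean profile of the members. On log2 (CPM + 10), Pearson's r was high for Cyp3a25, Cyb5 and Fcgrt (0.99 each), the butyrophilin-like gene Btnl1 (0.99) and the P450 gene Cyp2j6 (0.98). Cyp3a25 was at 611 and 831 CPM in Fabp1-high cells against 1.89 and 10.8 CPM in Nrn1/Ttr cells, while Cyp2j6 was at 1261 and 1010 against 83.2 and 147 CPM. Among the members, Aadac was least like the mean (0.77), and Cyp2c29 and Cyp4f14 were the most alike pair (0.99). All 185 Ptger4-ON UMIs of Cyp2c29 lay in Fabp1-high cells, so r of this pair rests mostly on the Fabp1-high profiles. In the Ptger4-ON one, 1 barcode held 133 of 185 Cyp2c29 and 168 of 266 Cyp4f14 UMIs.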

How the data were processed

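Drop-seq counts were measured in 2 libraries, 1 for each condition. The deposited values are whole-number counts for each gene and cell barcode, not normalized, per the file headers; that they count UMIs follows from the Drop-seq protocol in the labels. The submitters' processing notes name STAR 2.6 and mm10. Neither the counting tool nor its annotation or use of strand is named there, so these stay not given in the sources used here.

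Cells needed 300 genes and at most 20% mitochondrial counts; Scrublet removed 6 and 4 doublets. Counts scaled to 10000 in each cell were log-transformed and clustered jointly (scanpy 1.11.5, Leiden resolution 0.5, 2000 variable genes, 30 components, 15 neighbours). Counts were summed over each state and library as CPM with exact Poisson intervals; ratios have exact conditional binomial intervals, and log2 ratios add 0.5 counts. Genes needed 20 UMIs over both libraries. No p-value was computed. The ratio step was tested on simulated counts.

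Members and lists were chosen with earlier results of these data known. Outside the members, each list names its 3 largest and 2 smallest ratios, with a few more genes for context, and the 6 genes most like the mean profile. Of the genes this rule gives, 2 are not reported here. Alternatives changed filters, clustering, scaling (TMM in edgeR 4.0.16, median-of-ratios), weights and thresholds.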

Additional observations from a re-analysis of the deposited data

Results flagged for a closer look

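Cyp4f14 differed in sign between states. Its log2 ratio OFF/ON was -0.35 in Fabp1-high cells, against 2.31 in Clu/Ly6a cells and 1.35 in Top2a cells, and the difference between states was not tested, since each condition had 1 library. The Clu/Ly6a value rests on 16 Ptger4-ON and 31 Ptger4-OFF UMIs and the Top2a value on 8 and 33. The Fabp1-high value rests on 1 Ptger4-ON barcode that held 168 of the 266 Cyp4f14 UMIs of the state, and without barcodes over 50000 UMIs the ratio there was 1.13 [0.91 to 1.41].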

How the results depend on the processing

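Of the alternatives to the 6 main results, 105 values kept their direction and lay within counting error or within 1.5 times the count, and 11 moved, with no change of sign. The median log2 ratio of the members over epithelial-like cells (1.88) was 0.78 with equal weight for each state and 2.67 without barcodes over 50000 UMIs. In Fabp1-high cells (0.74) it was 1.19 with equal weight for each cell. In Nrn1/Ttr cells (1.24) it was 2.35 with a mitochondrial limit of 10%, and in Clu/Ly6a cells (2.32) it was 3.78 with the libraries clustered separately. In Top2a cells (1.42) it was 1.82 with a mitochondrial limit of 10%, 1.79 with the libraries clustered separately and 1.91 with a minimum of 50 UMIs, which leaves fewer genes. The count of other family genes at least 2-fold higher (14) was 5 with equal weight for each state, 26 with no minimum of UMIs, where 12.3% of all genes passed, and 7 at 3-fold. Among single members Cyp4f14 over the class turned to -0.29 with equal weight for each state (1.13 as reported). That value includes the Ptger4-ON barcode with 168 of the 266 Cyp4f14 UMIs of the Fabp1-high state and was not recomputed without it. Apart from changes made by the weights, gene filters and thresholds themselves, the cause was not tested. Clustering without the members and their families gave medians of 1.88 over the class and 0.73, 1.44, 2.43 and 1.51 in Fabp1-high, Nrn1/Ttr, Clu/Ly6a and Top2a cells. With the libraries clustered separately the Nrn1/Ttr state had 0 Ptger4-ON and 462 Ptger4-OFF cells, and equal weight for each state gives no value inside a state, so those values are missing. No replicate could be left out. No paired analysis was possible because each condition had 1 library. With 20 Ptger4-ON cells in the Fabp1-high state, depth limits every Ptger4-ON value there.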
